A study of Drosophila melanogaster with 18 samples.

Results

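The 5 genes described here encode the storage protein system of *Drosophila melanogaster*: the hexamerins *Lsp2*, *Lsp1alpha*, *Lsp1beta* and *Lsp1gamma* (larval serum proteins), and the hexamerin receptor *Fbp1* (fat body protein 1). They were taken by gene symbol, whatever their values, from a table of 15333 genes measured by 3′ RNA-seq, and all 5 were found. The RNA came from whole heads of wild-type Canton-S flies entrained for at least 3 days to 12:12 light-dark (LD) cycles at 18, 25 or 29°C. Heads were collected every few hours, at Zeitgeber times (ZT, hours from lights on) of 3, 7, 11, 15, 19 and 23, with 1 library for each temperature and time, 18 in all. The sources differ on when the temperatures began: the study's methods on fly rearing have crosses raised at 25°C and newborn adults kept there or moved, whereas the labels speak of growth at different temperatures. The sex of the flies is not given in the sources used here. The methods mention replicates of each time point for the circadian analysis, and further libraries of that kind were not analysed here. The 6 time points of a temperature therefore stand as its replicates. The p-values between temperatures rest on the spread between libraries within a temperature, which includes the time of day. In limma this spread is pooled over the 18 libraries and drawn toward that of rows of like level. Anything else that the libraries of a temperature share cannot be told apart from the temperature.

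Hexamerins belong to the hemocyanin superfamily, together with the prophenoloxidases of insect blood, but bind no copper. The larval fat body secretes them into the hemolymph late in larval life and takes them back up through the receptor, and the stored protein supplies amino acids for building the adult at metamorphosis. The LSP1 subunits are mainly known as larval products, whereas *Lsp2* is also transcribed in the adult fat body, a tissue that is present in the head.

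*Lsp2* lies on chromosome arm 3L, plus strand, at 12122493 to 12124796, and in the current Ensembl annotation it is a gene of 1 exon that encodes 701 amino acids. That annotation lists *Lsp2* transcripts with 3′ untranslated regions of 181 and 354 bp, and the row used here has the length of the shorter, 2304 bp. Whether reads from the longer 3′ end were counted is not given in the sources used here. *Lsp1beta* lies on 2L, plus strand, at 898644 to 901316, and *Lsp1gamma* on 3L, plus strand, at 66430 to 68995. *Lsp1alpha* lies on X, plus strand, at 12384324 to 12387015. Each *Lsp1* gene has 2 exons and encodes 816 (*Lsp1alpha*), 789 (*Lsp1beta*) or 772 (*Lsp1gamma*) amino acids. *Fbp1* lies on 3L, minus strand, at 14087689 to 14091153, and its 3 transcripts carried identical values and were counted once. Positions are those of the deposited table (dm3 build, counted from 1), and no other gene of the table overlapped any of the 5. Exon and codon numbers and the lengths of untranslated regions come from a later build. The *Lsp1* genes are related in sequence, and how reads that matched more than 1 gene were assigned is not given in the sources used here.

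The values, called signal here, are read numbers divided by 1 constant per library. The estimated depth was 1.24 to 6.62 M reads (median 3.11 M), and a signal equal to 3 reads, the floor under which a gene was treated as not detected, corresponded to 1.54 to 7.36. Genes were tested where their signal was at least 10 in at least 6 libraries. *Lsp2* and *Lsp1beta* reached 10 in all 18 libraries, *Lsp1alpha* in 7 and *Lsp1gamma* in 6. *Fbp1* did so in 3 libraries and was not part of the fit over 8846 rows of the table. One library stood apart from the rest: 25°C at ZT15, the shallowest, scored 71.2 on the second principal component against -24.5 to 7.11 for the other 17. Photoreceptor and neuronal genes were detected in every library, with *ninaE* (rhodopsin 1) between 14761 and 48630, and the summed signal of 6 ovary and germ line markers was 0 to 45.5. That of 5 midgut markers was 15.7 to 30.6 at 18°C, 12.7 to 87.9 at 25°C and 9.69 to 464.0 at 29°C (median 38.1 at 29°C).

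*Lsp2* was far more abundant in heads of flies kept in the cold. At 18°C its signal was 10156, 28470, 17796, 21431, 42471 and 55648 in the order of the collection times, from ZT3 to ZT23 (lowest 10156, median 24950, highest 55648). At 25°C the signal in the same order of times was 3261, 6570, 4645, 3269, 6147 and 2299 (median 3957), and at 29°C it was 2883, 3782, 2653, 963.9, 1997 and 8584 (median 2768). The lowest library at 18°C was above the highest of the other 12, so that the 18°C libraries overlapped neither other group, while those of 25°C and 29°C overlapped each other.

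**Figure D1:**
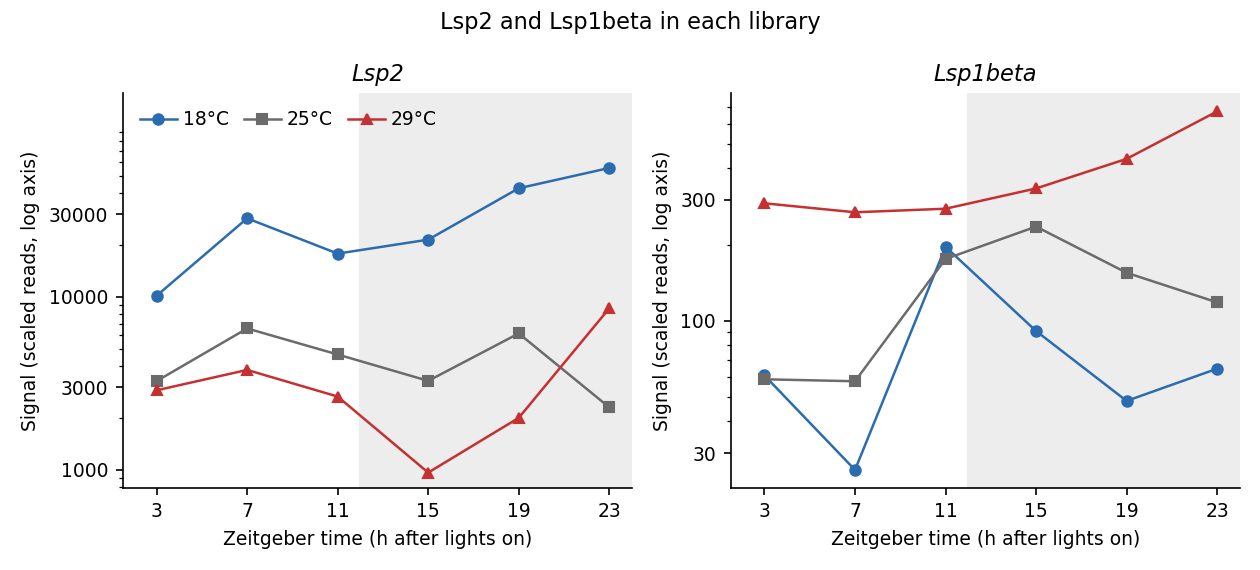
Signal (scaled reads, log axis) of *Lsp2* (left) and *Lsp1beta* (right) against Zeitgeber time, with 1 point per library and a line for each temperature; the grey band marks the dark hours. All 6 *Lsp2* values at 18°C lie above those at 25°C and 29°C, and all 6 *Lsp1beta* values at 29°C lie above those at the lower temperatures.

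The mean *Lsp2* signals of 18, 25 and 29°C were 29329 ± 16906, 4365 ± 1721 and 3477 ± 2673 (mean ± SD, n = 6). On the scale of log2(signal + 1), on which all fold changes are given, *Lsp2* was 2.63 ± 0.37 (SE) higher at 18°C relative to 25°C, a fold of 6.20 (95% confidence interval of the log2 difference 1.88 to 3.39; limma, adjusted p = 1.1e-05). It was higher at 6 of 6 time points, and among the 8846 rows tested it had the fifth largest rise. At 29°C it was 3.18 lower than at 18°C on the log2 scale, a fold of 9.03 (interval -3.93 to -2.42; limma, adjusted p = 1.4e-07), again at 6 of 6 time points. Between 29°C and 25°C the difference of -0.54 did not pass the test (interval -1.30 to 0.21; limma, adjusted p = 0.549; lower at 5 of 6 time points).

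*Lsp1beta*, which encodes a subunit of larval serum protein 1, went the opposite way. Its signal at 18°C was 60.7, 25.7, 195.9, 91.0, 48.2 and 64.6 from ZT3 to ZT23 (median 62.7). At 25°C it was 58.7, 57.6, 175.3, 235.5, 154.7 and 118.2 (median 136.4), and at 29°C it was 291.0, 268.2, 277.0, 333.2, 436.1 and 671.6 (median 312.1). Every library at 29°C was above all 12 libraries of the lower temperatures, whereas the ranges at 18°C and 25°C overlapped.

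For *Lsp1beta* the means were 81.0 ± 60.2, 133.3 ± 69.5 and 379.5 ± 155.8 in the same order (mean ± SD, n = 6). It rose by 1.61 ± 0.35 (SE) on the log2 scale between 25°C and 29°C, a fold of 3.04 (interval 0.88 to 2.33; limma, adjusted p = 0.0114; 6 of 6 time points). Leaving out a single time point moved this adjusted p past the threshold in 2 cases, ZT19 (0.0565) and ZT23 (0.0650). At 29°C it was 2.41 higher than at 18°C, a fold of 5.30 (interval 1.68 to 3.13; limma, adjusted p = 6.0e-06; 6 of 6 time points). Between 18°C and 25°C it was -0.80 (interval -1.52 to -0.08), which did not pass after adjustment (limma, adjusted p = 0.154; lower at 4 of 6 time points). That contrast passed without the library of 18°C at ZT11, the highest of its group (-1.11; limma, adjusted p = 0.0221). The end of *Lsp1beta* lies 175 bp from *snRNA:U1:21D*, which is on the other strand and carried no values in the table.

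**Figure D2:**
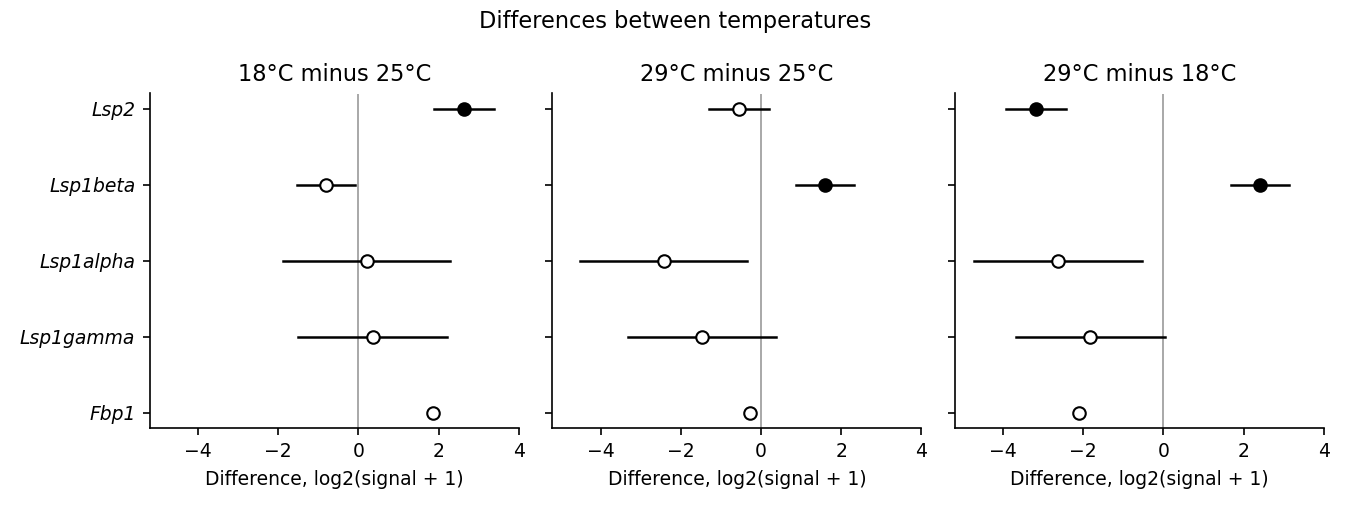
Differences between temperatures on the scale of log2(signal + 1) for the 5 genes, with 95% confidence intervals from limma; filled points had an adjusted p under 0.05, and *Fbp1* is shown without an interval because it was not part of the fit. *Lsp2* is high at 18°C and *Lsp1beta* is high at 29°C, and the intervals of *Lsp1alpha* and *Lsp1gamma* are wide.

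Of the 4 hexamerin genes tested, 1 (*Lsp2*) was called between 18°C and 25°C, where 10.8% of all rows were called. Between 29°C and 25°C 1 of 4 (*Lsp1beta*) was called, against 2.06% of all rows, and between 29°C and 18°C 2 of 4, in opposite directions, against 23.1%. The plot of differences with their intervals shows these 3 comparisons side by side. Leaving out the library of 25°C at ZT15 gave 2.57 for *Lsp2* at 18°C against 25°C (limma, adjusted p = 4.5e-05) and 1.81 for *Lsp1beta* at 29°C against 25°C (limma, adjusted p = 0.00656). The *Lsp2* and *Lsp1beta* levels are sums over all cells of a head, in which more cells of a type and more RNA per cell cannot be told apart.

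*Lsp1alpha*, another subunit of larval serum protein 1, was a low transcript that was present in some libraries and missing from others. Its signal was 0, 0, 43.1, 44.0, 29.7 and 12.4 at 18°C, and 5.43, 12.7, 40.9, 44.1, 0 and 1.1 at 25°C, from ZT3 to ZT23. At 29°C it was 3.16, 0, 1.29, 0, 0 and 0.515, and none of the 6 libraries exceeded the floor of 3 reads. Summed over the 6 libraries this came to 128 reads at 18°C, 91 at 25°C and 6 at 29°C, or 6.52 (5.44 to 7.76), 5.19 (4.18 to 6.37) and 0.251 (0.0920 to 0.545) reads per M (exact Poisson 95% intervals, which cover counting error only). The groups overlapped through the low libraries at 18°C and 25°C. The differences did not pass the test, at -2.43 for 29°C against 25°C (interval -4.51 to -0.34; limma, adjusted p = 0.252; lower at 5 of 6 time points) and -2.63 for 29°C against 18°C (interval -4.72 to -0.54; limma, adjusted p = 0.0623; lower at 4 of 6). In the latter contrast the adjusted p was 0.0163 without either of the 18°C libraries listed at 0 (ZT3 or ZT7) and 0.0465 without the library of 25°C at ZT19 (limma). Leaving out a 0 of the higher group widens the difference by construction. All 7 libraries in which *Lsp1alpha* reached a signal of 10 were at 18°C or 25°C. The gene thus passed the filter only through the groups in which it was high, and its contrasts with 29°C are not independent of that choice. The difference of 0.20 between 18°C and 25°C was small beside its interval of -1.88 to 2.29 (limma, adjusted p = 0.938).

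*Lsp1gamma*, the remaining subunit, had its higher values in many of the same libraries. Its signal was 3.25, 1.43, 29.4, 26.6, 15.8 and 1.37 at 18°C, 0, 7.63, 22.0, 19.6, 8.29 and 1.1 at 25°C, and 5.27, 0.968, 0, 0, 13.3 and 0 at 29°C. The groups overlapped in every comparison. The sums were 78, 52 and 24 reads, or 3.98 (3.14 to 4.96), 2.96 (2.21 to 3.89) and 1.0 (0.642 to 1.49) reads per M at 18, 25 and 29°C. No contrast passed, with log2 differences of 0.35 for 18°C against 25°C (interval -1.50 to 2.20; limma, adjusted p = 0.865), -1.47 for 29°C against 25°C (interval -3.32 to 0.38; limma, adjusted p = 0.491) and -1.82 for 29°C against 18°C (interval -3.67 to 0.03; limma, adjusted p = 0.155). *Lsp1beta* and the other *Lsp1* genes thus stood in a different order of temperatures, 29°C being the highest for *Lsp1beta* and the lowest in mean signal for *Lsp1alpha* and *Lsp1gamma*. The difference between the genes was not tested.

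*Fbp1*, the receptor, was the scarcest in number of libraries. Its signal was 5.42, 0, 20.6, 15.3, 10.2 and 4.12 at 18°C, 0, 0, 6.29, 2.45, 1.38 and 0 at 25°C, and 1.05, 0, 0, 0, 8.87 and 0 at 29°C. It exceeded the floor in 4, 1 and 1 of 6 libraries, and the groups overlapped. The sums of 55, 10 and 13 reads correspond to 2.80 (2.11 to 3.65), 0.570 (0.273 to 1.05) and 0.543 (0.289 to 0.928) reads per M. In two-sided exact permutation tests over the arrangements of 6 against 6 libraries, *Fbp1* differed by 1.85 between 18°C and 25°C (p = 0.0606), by -0.26 between 29°C and 25°C (p = 0.773) and by -2.11 between 29°C and 18°C (p = 0.0455). None passed after adjustment over the 3 contrasts (exact permutation, adjusted p = 0.0909, 0.773 and 0.0909).

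**Figure D3:**
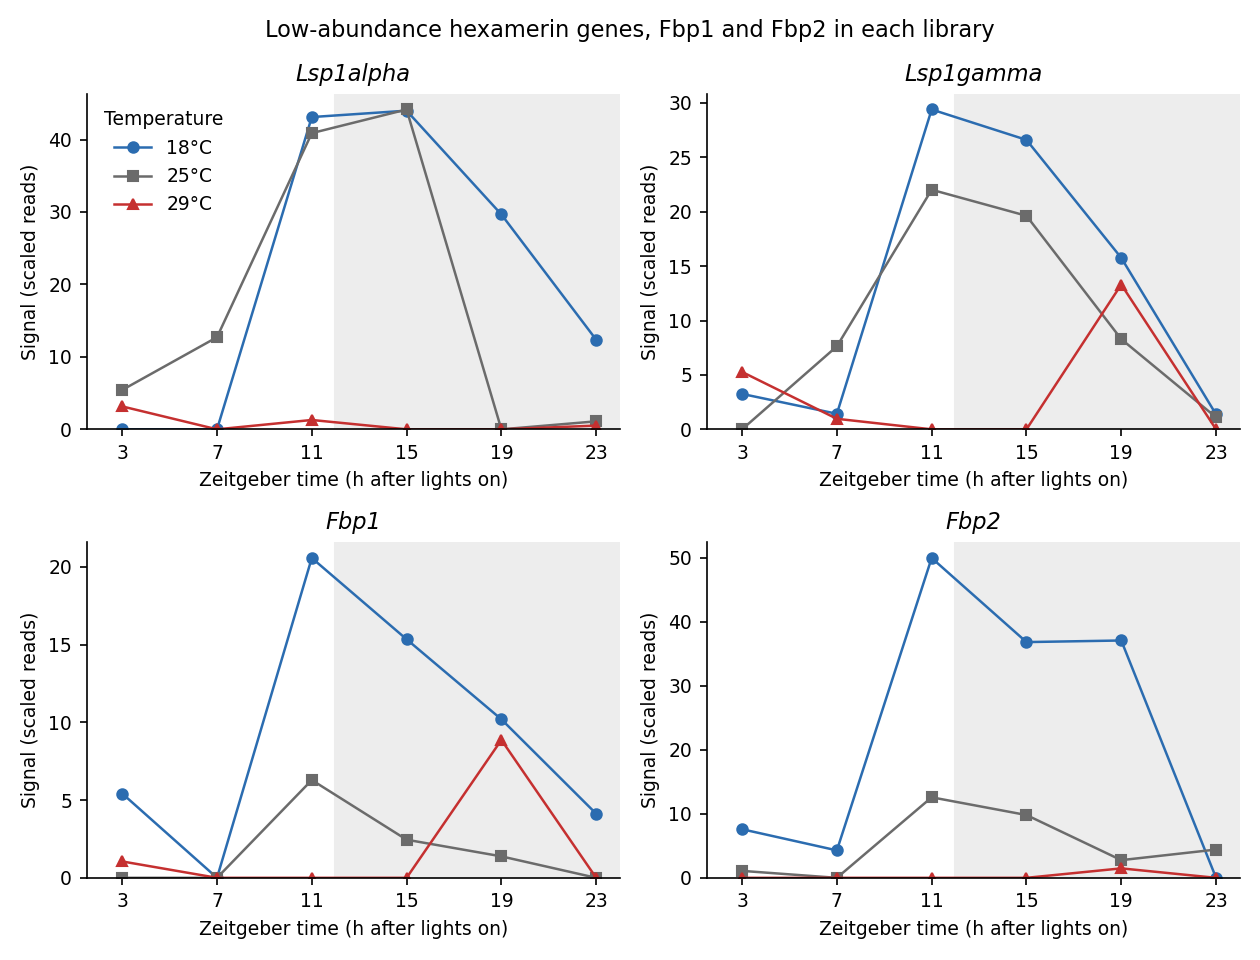
Signal (scaled reads) of *Lsp1alpha*, *Lsp1gamma*, *Fbp1* and the larval fat body gene *Fbp2* against Zeitgeber time, with 1 point per library and a line for each temperature; the grey band marks the dark hours. The higher values of all 4 genes include 18°C at ZT11, ZT15 and ZT19, and at 29°C most values are at or near 0.

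The low signals of *Lsp1alpha*, *Lsp1gamma* and *Fbp1* gathered in a few libraries. All 3 genes exceeded the floor in 4 libraries, namely 18°C at ZT11, ZT15 and ZT19 and 25°C at ZT11, which held 327 of their 457 reads. In 3 further libraries 2 of them did (81 reads), in 5 libraries 1 did (42 reads), and in 6 libraries none did (7 reads). *Fbp2*, a gene of the larval fat body related to alcohol dehydrogenase and not one of the 5, was highest in the same 18°C libraries, with 49.96, 36.8 and 37.1 at ZT11, ZT15 and ZT19 against 0 to 7.59 in the other 3. At 25°C *Fbp2* was 0 to 12.6 with its highest value at ZT11, and at 29°C it was 0 in 5 libraries and 1.48 in the remaining one. The plot of the 4 low genes shows that these peaks fall in neighbouring time points, but each time point is a single library, so that a time of day and a single collection of heads cannot be told apart. Of 14 genes listed for the larval fat body and larval stage, 4 were at 0 in all 18 libraries and 2 passed the filter. Of these 2, *Lcp65Ac*, a larval cuticle protein gene, was 1.65 lower at 29°C than at 18°C (limma, adjusted p = 0.000138), and none passed in the other contrasts. The summed signal of the 14 was 77.0 to 151.7 at 18°C, 41.4 to 94.0 at 25°C and 35.1 to 57.3 at 29°C, and its part in the values of *Lsp1alpha*, *Lsp1gamma* and *Fbp1* was not tested.

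Time of day was examined because the study asked which transcripts cycle. None of the 4 tested genes passed in dark against light, where 0.102% of all rows (9, with 801 at an unadjusted p under 0.05) were called by limma. The differences, dark minus light, were 0.15 for *Lsp2* (interval -0.46 to 0.77; limma, adjusted p = 0.928), 0.54 for *Lsp1beta* (interval -0.01 to 1.09; adjusted p = 0.557), 0.09 for *Lsp1alpha* (adjusted p = 0.992) and 0.34 for *Lsp1gamma* (adjusted p = 0.939). None passed either in a test of a 24 h rhythm common to the temperatures, in which 0.497% of all rows (44, with 766 unadjusted) were called. The fitted rhythm of *Lsp1beta* spanned 1.12 on the log2 scale from trough to peak, with a peak at 16.4 h (limma, adjusted p = 0.382). Those of *Lsp2*, *Lsp1alpha* and *Lsp1gamma* spanned 0.55, 2.49 and 2.43 (limma, adjusted p = 0.850, 0.640 and 0.590). Leaving out a library or time point moved the span of *Lsp2* between 0.18 (without ZT23) and 1.45 (without ZT3) and none of these fits passed (limma, adjusted p = 0.269 to 0.990).

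The curves of the temperatures differed in shape at an unadjusted p of 0.00375 for *Lsp1alpha*, 0.0190 for *Lsp2* and 0.0408 for *Lsp1beta*, but none passed after adjustment over all rows (limma, adjusted p = 0.771, 0.948 and 0.953). For no row of the table did this test pass (434 rows at an unadjusted p under 0.05). At 18°C the largest *Lsp2* signals were those of ZT19 and ZT23, at 25°C those of ZT7 and ZT19, and at 29°C that of ZT23. Within a temperature, *Lsp2* and *Lsp1beta* varied more than most genes of like abundance. The residual SD on the log2 scale was 0.86 for *Lsp2* and 0.79 for *Lsp1beta*, above 99.0% and 98.8% of the 500 rows nearest to each in mean level.

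*Lsp2* was high at 18°C together with many, but not all, of the other products that the adult fat body secretes. Of 14 tested genes of a list of such proteins, 9 were higher at 18°C relative to 25°C and none was lower, where 10.8% of all rows were called in either direction. They included the lipophorin gene *Rfabg* (0.83 on the log2 scale), the odorant-binding protein gene *Obp99a* (2.70), the female-enriched gene *fit* (2.94) and *Yp1* (0.69), *Yp2* (1.13) and *Yp3* (1.40), which encode yolk proteins. The other 5 did not pass, among them *Tsf1* (-0.03) and *Fer2LCH* (0.02). *Obp99b* was higher by 0.86 at 18°C relative to 25°C, but differed by only -0.02 between 29°C and 18°C (limma, adjusted p = 0.971). The median difference of the 14 was 0.69, against -0.02 over all rows. At 29°C relative to 18°C 10 of the 14 were lower and none was higher (median -0.86, against 0.05 over all rows, of which 23.1% were called). For 29°C against 25°C 3 were lower (median -0.27, against 0.02, with 2.06% of all rows called). The list was chosen with results of these data known and is not independent evidence of its direction.

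Markers of the adult fat body were also measured. Of 11 tested, which include *Rfabg*, *Mtp*, *to* and *Tsf1* of the list of secreted proteins, 3 were higher at 18°C relative to 25°C (10.8% of all rows called). None of the 11 was lower, and their median was 0.12. Their summed signal was 12973 to 21722 at 18°C, 12207 to 14534 at 25°C and 12119 to 16571 at 29°C. When each library was scaled to this sum, *Lsp2* was 2.27 higher at 18°C relative to 25°C (limma, adjusted p = 1.2e-05) and differed by -2.84 between 29°C and 18°C (limma, adjusted p = 1.1e-07). The sum is carried mainly by *Tsf1*, the transferrin gene, at 6971 ± 1336, 6991 ± 579 and 8156 ± 1366, and *Rfabg*, at 7742 ± 2293, 4238 ± 674 and 3566 ± 450 at 18, 25 and 29°C (mean ± SD, n = 6). The part of the amount of fat body in the *Lsp2* values was not tested.

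Genes expressed mainly in 1 sex were measured beside the hexamerins. All 4 female markers (*Yp1*, *Yp2*, *Yp3* and *fit*, all 4 also on the list of secreted proteins) were higher at 18°C relative to 25°C (10.8% of all rows called), and their summed signal was 296101 to 732739 at 18°C, 145385 to 276834 at 25°C and 98922 to 197560 at 29°C. Of 5 male markers 1 was lower at 18°C than at 25°C (*roX2*, an RNA of male dosage compensation, by -1.97), which is little to set beside the 10.8% of all rows, and 3 were higher at 29°C than at 18°C (*roX1* 0.89, *roX2* 3.34, *sxe2* 1.53), where 23.1% of all rows were called. The summed male markers were 813.1 to 3791 at 18°C, 2134 to 4201 at 25°C and 3479 to 4440 at 29°C. The yolk protein sums at 18°C did not overlap those at 25°C or 29°C, so that in this design temperature and the yolk protein level cannot be told apart.

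*Lsp2* was also expressed per 1000 of the summed signal of *Yp1*, *Yp2* and *Yp3*, a measure added after the values had been seen. The ratio was 28.9, 39.0, 60.3, 48.4, 64.5 and 79.8 at 18°C, 11.8, 25.6, 16.8, 22.5, 25.8 and 8.99 at 25°C, and 28.8, 38.3, 19.6, 6.78, 15.08 and 43.6 at 29°C, from ZT3 to ZT23. All values at 18°C were above those at 25°C, and the groups at 18°C and 29°C overlapped. The ratio was 2.93-fold higher at 18°C relative to 25°C (log2 difference 1.55; two-sided exact permutation p = 0.00216, the smallest that 6 against 6 libraries can give; adjusted over 3 contrasts 0.00649; 6 of 6 time points). At 29°C relative to 18°C the ratio was 2.37-fold lower (exact permutation p = 0.0152, adjusted 0.0227; 6 of 6 time points), and between 29°C and 25°C the difference was 0.31 (exact permutation p = 0.545). A ratio takes *Lsp2* to be proportional to the yolk protein signal, and within 25°C and 29°C the relation, given below, was weak. The yolk protein genes themselves differed between temperatures. The ratio therefore cannot separate temperature from the yolk protein level.

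**Figure D4:**
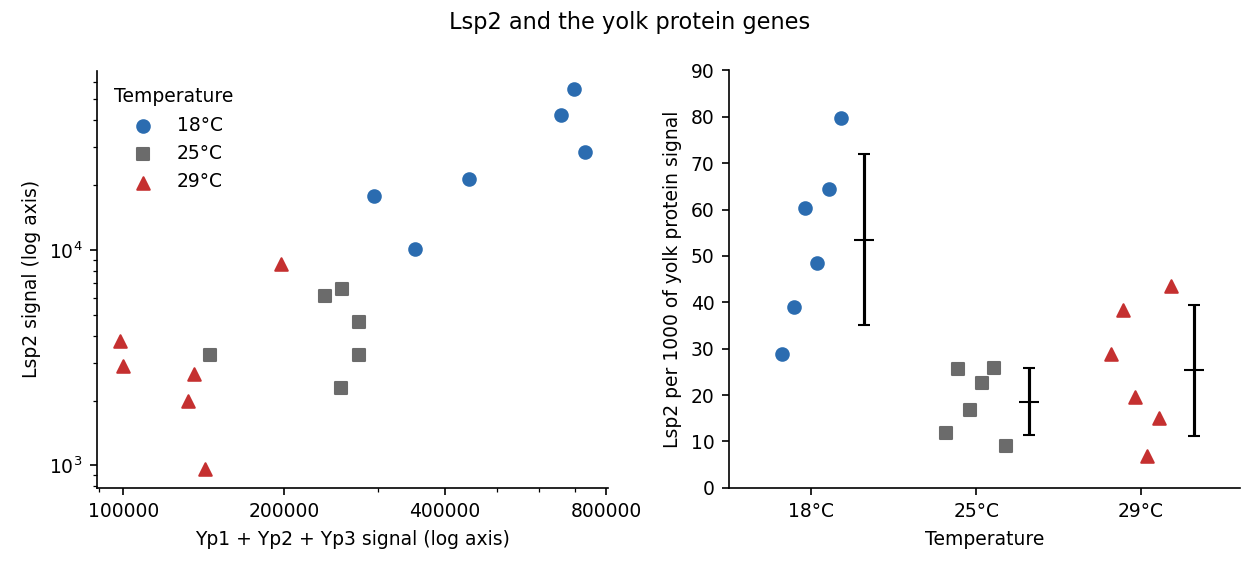
Left, *Lsp2* signal against the summed signal of *Yp1*, *Yp2* and *Yp3* (both log axes), 1 point per library; right, *Lsp2* per 1000 of the yolk protein signal by temperature, with points in order of time and bars showing mean ± SD (n = 6). The ratio is 53.5 ± 18.4 at 18°C, 18.6 ± 7.18 at 25°C and 25.3 ± 14.099 at 29°C.

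With the log2 yolk protein signal as a covariate in limma, the *Lsp2* difference between 18°C and 25°C was 1.58 (adjusted p = 0.0369). That between 29°C and 18°C was -1.29 and no longer passed (limma, adjusted p = 0.319). With the same covariate, *Lsp1beta* was 0.94 higher at 29°C than at 25°C (limma, adjusted p = 0.249) and 0.90 higher than at 18°C (limma, adjusted p = 0.545), and neither passed. These fits use 1 yolk protein slope for all temperatures, and the yolk protein sums at 18°C do not overlap the others. For *Lsp1beta* the relation within temperatures, given below, also differs in sign. The covariate therefore cannot separate temperature from the yolk protein level for either gene. Within the 18°C libraries the log2 signals of *Lsp2* and the yolk protein genes had r = 0.82 (Spearman's rho = 0.77; exact permutation p = 0.0528 and 0.103, n = 6), and without the 2 libraries farthest from the median yolk signal r was 0.68. At 25°C and 29°C r was 0.18 and 0.30 (rho = 0.03 and -0.09; exact permutation p = 0.814 and 0.589 for r, 1.0 and 0.919 for rho) and turned to -0.49 and -0.64 without the 2 farthest. For *Lsp1beta* r was -0.79, -0.61 and 0.84 at 18, 25 and 29°C (rho = -0.71, -0.37 and 0.71; exact permutation p = 0.0583, 0.117 and 0.0694 for r, 0.136, 0.497 and 0.136 for rho), and -0.77, -0.80 and 0.32 without the 2 farthest. None of these 6 relations passed after adjustment (lowest adjusted p 0.139 for r and 0.272 for rho).

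The prophenoloxidases, the relatives of the hexamerins that start melanization in the blood, gave values of their own. *PPO1* was 84.6 ± 39.6, 176.5 ± 35.2 and 161.4 ± 55.2 and *PPO2* was 127.3 ± 56.6, 291.7 ± 35.0 and 280.0 ± 68.3 at 18, 25 and 29°C (mean ± SD, n = 6). Both were lower at 18°C than at 25°C (-1.19 and -1.30; limma, adjusted p = 0.00252 and 7.8e-05) and higher at 29°C than at 18°C (1.01 and 1.21; adjusted p = 0.00487 and 6.6e-05). *PPO3* was 0 to 7.41 and was not tested. None of 5 tested hemocyte markers, of 7 listed, passed in any of the 3 temperature contrasts. In those contrasts 10.8%, 2.06% and 23.1% of all rows were called.

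Of 17 tested genes of ecdysone and juvenile hormone response none passed between 18°C and 25°C, and 1 was lower at 29°C than at 25°C (*Jheh1*, a juvenile hormone epoxide hydrolase, -0.68). At 29°C relative to 18°C 1 was higher (*Jheh2*, 0.41) and 2 were lower. These were *Jheh1* (-0.79) and the ecdysone-induced factor gene *br* (-1.72, adjusted p = 0.04999 in limma, just under the threshold). Of 13 tested genes of fat body transcription and nutrient signalling, 1 was lower at 18°C than at 25°C (*sug*, -0.53), none passed between 29°C and 25°C, and 3 were higher at 29°C than at 18°C (*InR*, the insulin receptor gene, 0.74, *sug*, 0.54, and *crc*, 0.36). Of all rows, 10.8%, 2.06% and 23.1% were called in these contrasts, and nothing particular to either list is read from its counts. The medians of the hormone list in the 3 contrasts were -0.07, -0.01 and 0.02, and those of the nutrient list -0.11, 0.25 and 0.06.

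Other markers moved with temperature too, and their part in the hexamerin values was not tested. The summed signal of 9 head and eye markers was 48090 to 61103 at 18°C, 72899 to 82790 at 25°C and 93576 to 118713 at 29°C. Of the 9, 3 were lower at 18°C than at 25°C (10.8% of all rows called). At 29°C 3 were higher than at 25°C (2.06% of all rows called). That of 5 muscle markers was 8602 to 11369, 6306 to 7643 and 5086 to 6356 in the same order. Of these 5, 4 were higher at 18°C relative to 25°C (10.8% of all rows called). The muscle gene *Act88F* had a highest signal of 2235 at 18°C, against a median of 13.2. *Lsp2* was thus high at the temperature at which the muscle and yolk protein sums were high and the head and eye sum low. *Lsp1beta* was high at 29°C, where the head and eye sum was highest. The head and eye sum is carried mainly by *ninaE*, with means of 17919, 26327 and 38640, and *Arr2*, with 20510, 31281 and 41607, at 18, 25 and 29°C. Not every gene of that list followed the sum. *ninaC* was 4159 ± 210, 3798 ± 463 and 3586 ± 146 at 18, 25 and 29°C (mean ± SD, n = 6), and none of its contrasts passed. *Arr1* was not called between 18°C and 25°C (limma, adjusted p = 0.197). The neuronal genes *elav*, *nSyb* and *Syt1*, and *repo*, passed in no temperature contrast.

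The gene most like *Lsp2* over the 18 libraries was *Mgstl*, a microsomal glutathione S-transferase gene, with Pearson's r of 0.96 on the log2 scale and 0.82 after each temperature mean had been subtracted. *CG3609* (0.93 and 0.66) and *fit* (0.92 and 0.65) followed. For *Lsp1beta* the closest named gene was *Hsp60*, a mitochondrial chaperonin gene (0.86 and 0.61), followed by *snRNA:U2:14B*, a spliceosomal RNA gene (0.86 and 0.48), and an unnamed row with nearly the same values. For *Lsp1alpha* they were *CtsB1* (0.82 and 0.74), *CREG* (0.77 and 0.69) and *Tep3* (0.76 and 0.73), and for *Lsp1gamma* *CG4962* (0.81 and 0.79), *Sox102F* (0.77 and 0.76) and *wash* (0.76 and 0.72). These coefficients describe libraries that share temperature, depth and collection, and carry no test.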

How the data were processed

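3′ RNA-seq (polyadenylated RNA) was analysed for 18 libraries, with groups taken from the temperature in the labels. The authors deposited 1 table of signal, that is, reads per annotated transcript divided by 1 constant per library. Build dm3 and the tools Bowtie2, TopHat and Cufflinks are named in the submitters' processing notes, without a role. How the constants were obtained is not given in the sources used here. Whole multiples of the worth of 1 read (tolerance 0.01 read) made up 96.8% to 97.7% of nonzero values, so no count test was run. Of the 90 values of the 5 genes, 89 were whole.

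Of 29561 rows, 667 held no values. Rows of a gene with identical values were kept as 1 (17730 rows left), and rows of a gene differing by under 10% were merged (16489). Of the rows without a gene name, 4 were named through RefSeq, 377 by values equal to a named row, and 455 stayed unnamed. Rows of at least 10 in at least 6 libraries (8846 rows of 8200 genes) were fitted as log2(signal + 1) with limma 3.58.1 in R 4.3.3 (temperature means, intensity trend, Benjamini-Hochberg over all rows, threshold 0.05). The script was tested on simulated data. Temperature terms were joined by a dark term or by a cosine and a sine of 24 h for the tests of time. The fifth time point is ZT19 in descriptions and ZT18 in titles, and ZT19 was used. *Fbp1* was tested by exact permutation. The limma intervals rest on the spread between libraries. The Poisson intervals and the floors cover counting error only, and amplified reads are not independent molecules.

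The named genes were the 5 symbols, the 3 rows most correlated with each tested gene, and gene lists. The members, lists and tests were chosen with earlier results of these data known. Alternatives were the pseudocount, filter, scaling, handling of repeated rows, the time point as a block, the intensity trend, a yolk protein covariate, fat body scaling, and leaving out each library or time point. The gene annotation of a later build was used only for exon and codon numbers and the lengths of untranslated regions.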

Additional observations from a re-analysis of the deposited data

Results flagged for a closer look

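In 15 groups of 6 libraries (5 genes at 3 temperatures) the gap between the most extreme library and its neighbour was compared with the range of the group by Dixon's criterion. The signal itself was used, without logarithms. The criterion was exceeded in 2 groups, against 0.75 expected for normally distributed values. Signal need not be so distributed, and *Fbp1* at 29°C was above 0 in only 2 of 6 libraries. The 0.75 is therefore not a chance rate for these groups, and the 2 flags only point to libraries. *Lsp2* at 29°C had its highest signal at ZT23, 8584, against 963.9 to 3782 in the other 5 libraries. On the scale of log2(signal + 1), to which the criterion was not applied, this was 13.07 against 9.91 to 11.89. The library of 29°C at ZT23 was the deepest of the series, with 6.62 M reads, and also had the highest yolk protein signal at 29°C. Without it the *Lsp2* difference between 29°C and 25°C was -0.87 (limma, adjusted p = 0.247). *Fbp1* at 29°C had its highest signal at ZT19, 8.87, against 0 to 1.05 in the others, and the value rests on 12 reads. *Lsp1gamma* was also at its 29°C maximum there, 13.3.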

How the results depend on the processing

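*Lsp2* at 18°C against 25°C kept its direction and passed under all 38 alternatives (1.55 to 2.89), and *Lsp1beta* at 29°C against 18°C under all but 1. Of the 38, 24 left out a library or time point and shared most of their data, so they are not independent checks. The yolk protein covariate and ratio, also among the 38, cannot separate temperature from the yolk protein level. The cause of each change listed here was not tested. With the yolk protein covariate, *Lsp2* gave -1.29 in the contrast of 29°C with 18°C (no longer passing) and 0.29 in that of 29°C with 25°C, 0.31 when divided by yolk protein signal, both above 0 where the reported difference is below it. With the same covariate *Lsp1beta* gave 0.90 (29°C against 18°C) and 0.94 (29°C against 25°C), no longer passing, and 0.041 for 18°C against 25°C, and *Lsp2* gave -0.039 for dark against light. Without the intensity trend, *Lsp1beta* at 29°C against 25°C, 1.61, did not pass (limma, adjusted p = 0.105). Fat body scaling gave *Lsp1beta* -1.16 for 18°C against 25°C (limma, adjusted p = 0.0301), *Lsp1alpha* -0.080 for 18°C against 25°C and -0.067 for dark against light, and *Lsp2* -0.021 for dark against light. *Lsp1alpha* gave -0.0016 for 18°C against 25°C with a pseudocount of 0.25. It passed for 29°C against 18°C with a pseudocount of 5 (-1.66; limma, adjusted p = 0.0310) and for 29°C against 25°C by exact permutation alone (-2.43, unadjusted p = 0.0433). Dark terms fitted for a single temperature changed sign for *Lsp1alpha* at 25°C (-1.76) and 29°C (-0.88), *Lsp1beta* at 18°C (-0.043), and *Lsp2* at 25°C (-0.37) and 29°C (-0.27).

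The time point as a block moved *Lsp1alpha* at 29°C against 18°C, -2.63, past the threshold (limma, adjusted p = 0.0493) and changed no other call. Libraries of the same time correlated by -0.05 to 0.11 in their deviations, over 0.1 in 2 of 18 pairs, so the time points were not taken as pairs.

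Leaving out a library or a time point gave, for 18°C against 25°C, 1.53 to 2.41 for *Fbp1*, -0.75 to 0.998 for *Lsp1alpha*, -1.11 to -0.53 for *Lsp1beta* and -0.19 to 0.79 for *Lsp1gamma*. For 29°C against 18°C it gave -2.67 to -1.79 for *Fbp1* and -3.57 to -2.17 for *Lsp1alpha*, and for 29°C against 25°C -0.78 to 0.12 for *Fbp1* and 1.40 to 1.83 for *Lsp1beta*. For dark against light it gave -0.43 to 0.53 for *Lsp1alpha*, -0.026 to 1.21 for *Lsp1gamma* and -0.13 to 0.54 for *Lsp2*. *Fbp1* passed in both contrasts with 18°C only without 18°C at ZT7 (exact permutation, adjusted p = 0.0162). *Lsp1alpha* and *Lsp1gamma* fell out of the filter in some of these fits, which gave 22 and 15 of 24 values.

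Over all rows, the 959, 182 and 2044 calls became 2044, 332 and 4263 with repeated rows kept, and 624, 448 and 732 with the yolk protein covariate. In 29°C against 25°C 36 rows were called without the trend, 49 without ZT15, 78 without ZT19 and 111 without 29°C at ZT15, and fat body scaling gave 1683 and 72 against 25°C. Scaling by library total moved the median of all rows to -0.18, 0.04 and 0.24 and the calls, higher and lower, from 591 and 368, 72 and 110, and 928 and 1116 to 308 and 892, 131 and 97, and 1657 and 739. Fat body scaling moved the medians to -0.37, 0.00 and 0.38 and the calls to 127 and 1556, 29 and 43, and 2075 and 417.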
